A study of Oikopleura dioica with 8 samples.

Results

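The data describe 4 gene models of the larvacean *Oikopleura dioica* that are annotated as myosin heavy chain, out of 17212 gene models in the table. They were chosen by identifier from the annotation that accompanies the gene models. The rule names no value measured in these libraries, but the choice was made with earlier results of these data known. GSOIDT00010986001, GSOIDT00010985001 and GSOIDT00005710001 carry the description embryonic muscle myosin heavy chain. GSOIDT00011363001 is described as myosin heavy chain, without the word muscle, so its annotation does not say that it is a muscle gene. In the 1998 annotated rows used here, 7 gene models carry one of these descriptions, so the 4 are a selection from 7. The other 3, GSOIDT00017172001, GSOIDT00014839001 and GSOIDT00016002001, are given beside them. None of the 7 is annotated as trans-spliced (0 of 7). The 4 are not annotated as present in oocytes (0 of 4), whereas 2 of the 7, GSOIDT00014839001 and GSOIDT00016002001, are.

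The animals were whole *O. dioica*, a small marine chordate, in a growth arrest (stasis) caused by crowding and limited food. They were collected on day 7, either still in stasis or 30 min after transfer to normal animal density (release). Each of the 4 samples, 2 biological replicates of each state, pooled many animals. From each, a library of ribosome protected fragments (RPF), the pieces of mRNA covered by ribosomes, and a library of total RNA were sequenced. No allele or drug distinguished the states. Food on release is not given in the sample labels, but the authors describe release as dilution with food present. Animal density and food may thus both differ between the states.

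Myosin heavy chain is the motor subunit of muscle. Its head splits ATP and pulls on actin, and its long tail packs with others into the thick filament, while light chains sit on the neck between them. A larvacean keeps its tail throughout life, and bands of muscle along the tail beat to pump water through the mucous house in which it feeds. Tropomyosin and troponin lie on the actin filament and gate the access of myosin, and myosin-binding protein C decorates the thick filament. Because the samples were whole animals, more muscle tissue and more mRNA per muscle cell cannot be told apart in any value given here.

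The 4 total RNA libraries held 13041273 to 22839600 counted reads and the 4 RPF libraries 261745 to 1488886, with replicate 2 of each state at the low end (261745 and 308680 RPF reads). The 4 gene models reached 100 reads over the 8 libraries together (4 of 4), the minimum for a test, as did 14595 of 17212 gene models in all. Release replicate 1 stood apart from release replicate 2 for most of the myosin heavy chains, so the changes of named gene models are also given without it, here or in the closing section. Values are CPM, reads scaled to a common library size with TMM (trimmed mean of M-values) within the assay. They are not divided by gene length, so a level is compared between samples and never between genes. No source used here says whether reads with several matching places were counted, so the split of reads between near-identical myosin genes is uncertain.

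Total RNA of 3 of the 4 gene models was far higher in release replicate 1 than in any other library. GSOIDT00010986001 had 678 and 752 CPM in the stasis samples and 2201 and 889 CPM in the release samples. GSOIDT00010985001 had 90.3 and 83.3 CPM in stasis and 266 and 103 CPM on release. Both release samples lay above both stasis samples for these gene models, but by a small margin in replicate 2. GSOIDT00005710001 had 220 and 354 CPM in stasis and 769 and 319 CPM on release, so its second release sample fell between the stasis samples. GSOIDT00011363001 had 58.3 and 63.6 CPM in stasis and 82.7 and 80.8 CPM on release, a smaller difference that was almost the same in both release samples.

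**Figure D1:**
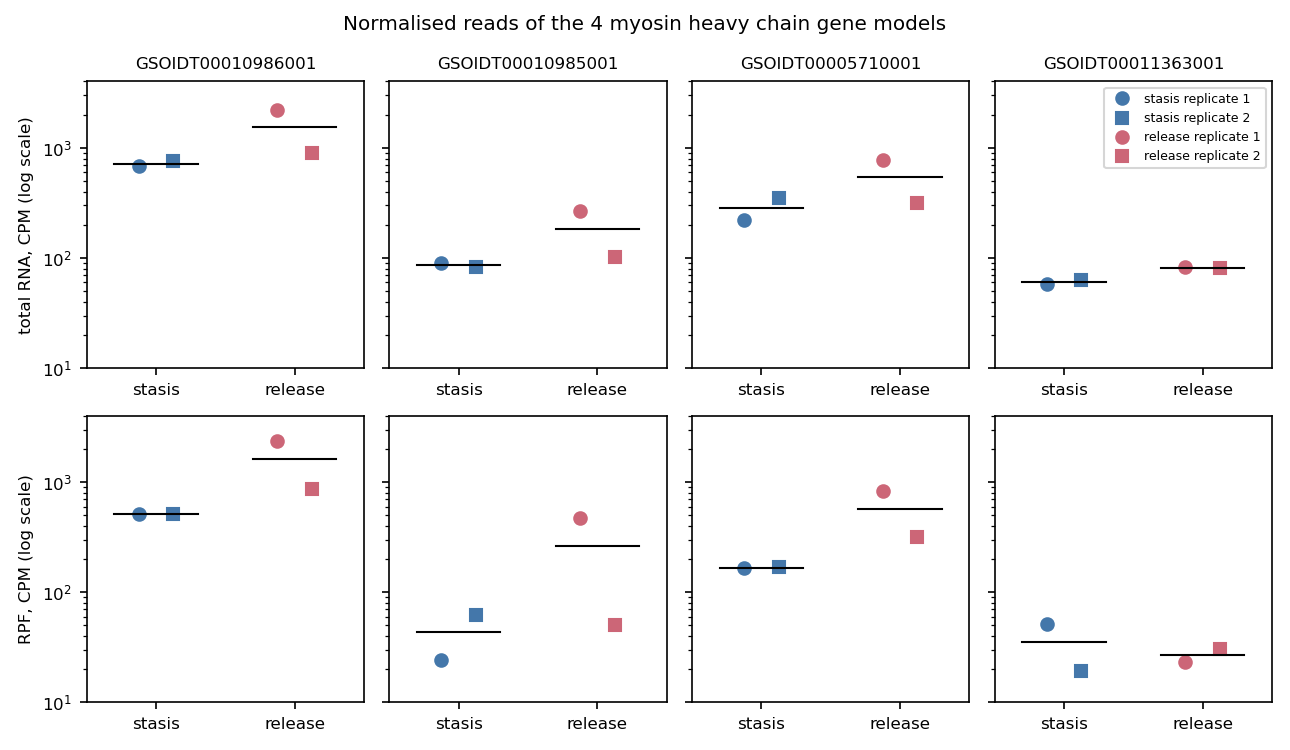
Normalised reads (CPM, log scale) of the 4 myosin heavy chain gene models in total RNA (top) and RPF (bottom). Each point is 1 library and each line the mean of 2. Release replicate 1 is the highest total RNA library in each of the 4 panels, at 2201, 266, 769 and 82.7 CPM, and in RPF it is the highest for 3 of the 4 gene models.

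Groups did not overlap, with release higher, for 3 of the 4 gene models in total RNA, against 31.3% of all gene models tested. The log2 change of total RNA was 1.11 ± 0.42 (standard error) for GSOIDT00010986001, 1.08 ± 0.42 for GSOIDT00010985001, 0.92 ± 0.44 for GSOIDT00005710001 and 0.42 ± 0.10 for GSOIDT00011363001. With edgeR's quasi-likelihood test and Benjamini-Hochberg adjustment over all gene models, the adjusted p was 0.144, 0.153, 0.222 and 0.0574 in the same order, so 0 of 4 passed 0.05. In that test 6.8% of all gene models were called higher (993) and 2.27% lower (332). Without TMM, on library totals, the calls were 675 higher and 886 lower, and again 0 of the 4 passed. At an unadjusted p under 0.05, 3 of the 4 were higher, against 17.3% of all gene models. DESeq2, run as an alternative, called 2 of the 4 higher, GSOIDT00010986001 (adjusted p = 0.0215) and GSOIDT00010985001 (adjusted p = 0.0354), where it called 8.89% of all gene models higher, and limma-voom called 0 of 4.

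The smallest change had the smallest p. GSOIDT00011363001 differed the least between the states, and the SD of its CPM was 3.74 in stasis and 1.40 on release (n = 2 each). For GSOIDT00010986001 the mean was 715 ± 52.1 CPM in stasis and 1545 ± 928 CPM on release (SD, n = 2 each), so that the spread on release exceeded the difference between the means. An exact permutation test of 2 samples against 2 cannot go below p = 0.333 (two-sided) and was not used.

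The distance between the release samples was unusual for the table. Total RNA of GSOIDT00010986001, GSOIDT00010985001 and GSOIDT00005710001 was 2.48, 2.59 and 2.41 times as high in release replicate 1 as in release replicate 2, and that of GSOIDT00011363001 was 1.02 times as high. A ratio of 2 or more between these libraries was found for 0.767% of all gene models, 112 of 14595, and for 3 of the 4. In RPF the count was also 3 of 4, where 35.6% of all gene models reached that ratio. Without release replicate 1, the log2 change of total RNA was 0.31 for GSOIDT00010986001, 0.24 for GSOIDT00010985001, 0.15 for GSOIDT00005710001 and 0.41 for GSOIDT00011363001 (adjusted p from 0.314 to 0.845, edgeR). GSOIDT00011363001 thus kept its size without that library, and the other 3 did not. Leaving out a stasis replicate acted the other way. Without stasis replicate 1, 3 of the 4 passed, all but GSOIDT00005710001, and without stasis replicate 2 all 4 passed (adjusted p from 0.00176 to 0.0130), in fits that called 15.3% and 18.1% of all gene models higher.

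The footprints on 2 of the 4 selected myosin heavy chains were higher in both release samples, while the stasis samples were nearly equal after TMM scaling. GSOIDT00010986001 had 515 and 518 RPF CPM in stasis and 2377 and 872 RPF CPM on release. GSOIDT00005710001 had 167 and 168 RPF CPM in stasis and 826 and 315 RPF CPM on release. As unscaled shares of RPF reads, the stasis samples were further apart. For GSOIDT00010986001 they were 0.0574% and 0.0413%, with 0.281% and 0.0833% on release. For GSOIDT00005710001 they were 0.0186% and 0.0134%, with 0.0976% and 0.0301% on release. In these 2 of the 4, both release samples lay above both stasis samples in RPF (2 of 4, against 12.8% of all gene models). Of the 3 other myosin heavy chains, 1 had the same order, GSOIDT00017172001 (values below). The values in replicate 2 rest on few reads, 108 and 257 for GSOIDT00010986001 and 35 and 93 for GSOIDT00005710001.

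GSOIDT00010985001 had the largest RPF change of the 4, and it sat in 1 library. Its RPF level was 24.1 and 62.4 CPM in stasis and 470 and 50.9 CPM on release, from 40, 13, 688 and 15 reads. Release replicate 1 was therefore 19.5 times stasis replicate 1, whereas release replicate 2 was 0.815 times stasis replicate 2. GSOIDT00011363001 went the other way in that library, with 51.3 and 19.2 RPF CPM in stasis and 23.2 and 30.5 RPF CPM on release, from 85, 4, 34 and 9 reads.

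**Figure D2:**
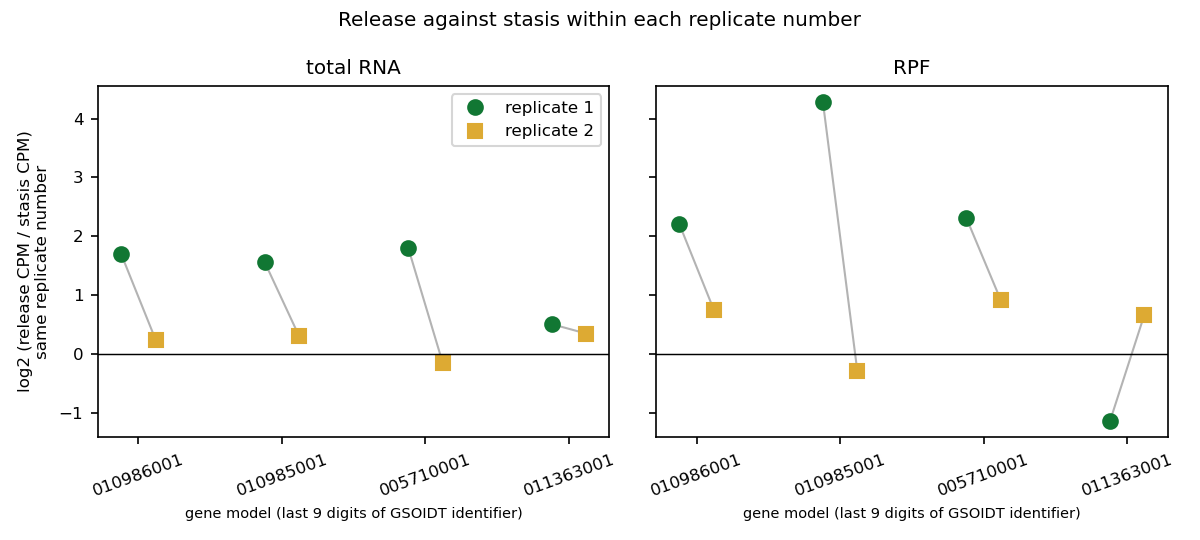
Log2 of release over stasis CPM for samples that share a replicate number, in total RNA (left) and RPF (right). The labels do not say what samples with the same number share. Replicate 1 gave log2 values of 1.70, 1.56, 1.80 and 0.51 in total RNA and 2.21, 4.28, 2.31 and -1.14 in RPF, while replicate 2 stayed between -0.29 and 0.91.

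The log2 change of RPF was 1.65 ± 0.72 for GSOIDT00010986001, 2.74 ± 0.69 for GSOIDT00010985001, 1.78 ± 0.65 for GSOIDT00005710001 and -0.53 ± 0.80 for GSOIDT00011363001. None passed after adjustment in edgeR (0 of 4), and the smallest adjusted p was 0.191, for GSOIDT00010985001. Its unadjusted p of 6.55e-05 in edgeR ranked 5 among 14595 gene models, but the unadjusted p was 0.00428 with DESeq2 and 0.0141 with limma-voom. At an unadjusted p under 0.05, 3 of the 4 were higher, where 0.363% of all gene models were (53). Many of those gene models had few RPF reads. In a fit of the 1804 gene models with 10 or more reads in every library, 16 were higher at that p, these 3 among them. After adjustment in the main fit, 0% of gene models were called higher and 0.00685%, a single one, lower. DESeq2 and limma-voom called 0 of the 4 and 0 gene models.

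The RPF changes also depended on single libraries. Without release replicate 1 they were 0.75, 0.32, 0.91 and -0.30 in the order above (adjusted p = 1 for each, edgeR). Without stasis replicate 2 the change of GSOIDT00010985001 was 3.45 and passed (adjusted p = 0.00648), in a fit that called 0.0548% of gene models higher. Without stasis replicate 1, whose 85 reads were the most for GSOIDT00011363001, the change of that gene model turned from -0.53 to 0.44.

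Reads of one myosin heavy chain against another in the same library need no scaling between libraries and show which of them moved together. For every 100 reads of GSOIDT00010986001 there were 13.3 and 11.1 total RNA reads of GSOIDT00010985001 in stasis and 12.1 and 11.5 on release. The ratio differed by no more than 1.20 times over libraries in which GSOIDT00010986001 itself spanned 678 to 2201 CPM. For GSOIDT00005710001 it was 32.5 and 47.0 in the stasis samples, then 34.9 and 35.8 on release, with stasis replicate 2 standing apart (95% exact binomial interval 45.4 to 48.7). For GSOIDT00011363001 it was 8.59, 8.45 and 9.08 in stasis replicates 1 and 2 and release replicate 2, and 3.76 (3.55 to 3.98) in release replicate 1. Total RNA of that gene model thus did not share the step of release replicate 1. Intervals here and below cover counting error only.

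In RPF the ratio of GSOIDT00005710001 to GSOIDT00010986001 hardly moved. It was 32.4 and 32.4 per 100 reads in the stasis samples, then 34.8 and 36.2 on release, a span of 1.12 times, and the intervals of the 4 libraries overlapped (the narrowest, in release replicate 1, ran from 32.5 to 37.1). For GSOIDT00010985001 the RPF ratio was 4.68 (3.32 to 6.43) and 12.04 (6.21 to 21.5) in stasis and 19.8 (18.2 to 21.4) and 5.84 (3.22 to 9.81) on release. Stasis replicate 1 and release replicate 2 were alike and release replicate 1 was about 4.22 times the lowest, although the total RNA ratio of the same gene models was level. For GSOIDT00011363001 it was 9.95 (7.87 to 12.4) in stasis replicate 1 and 0.976 (0.675 to 1.37) in release replicate 1, with 3.70 and 3.50 in replicate 2 of stasis and release.

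**Figure D3:**
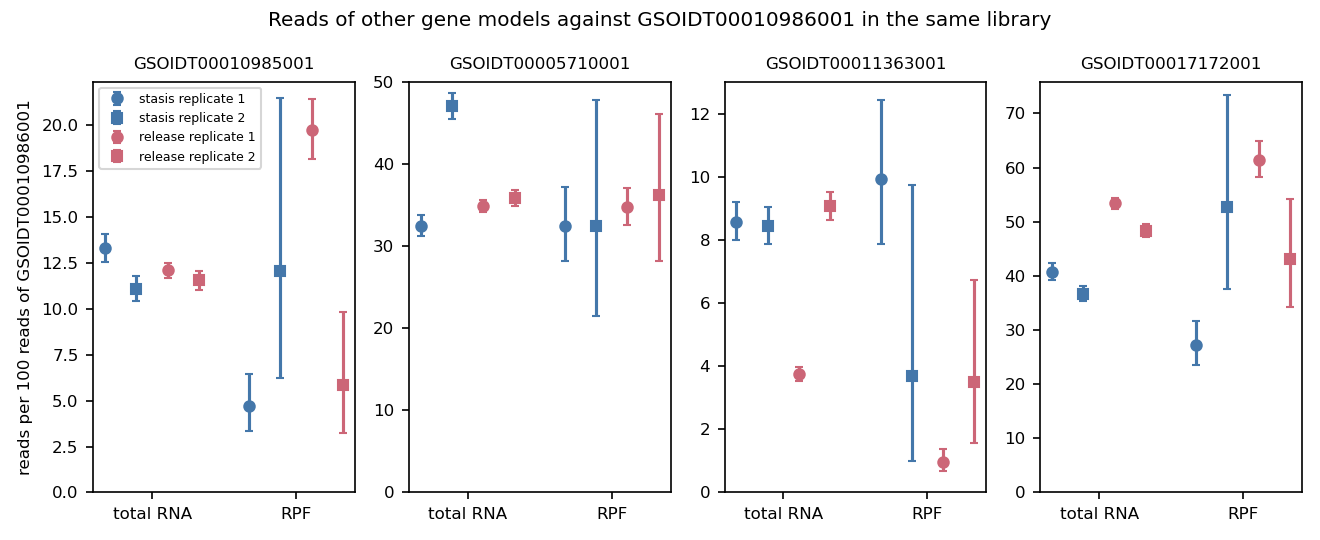
Reads per 100 reads of GSOIDT00010986001 in the same library, for 3 of the selected gene models and for GSOIDT00017172001, with 95% exact binomial intervals (counting error only). The total RNA ratio of GSOIDT00010985001 stays between 11.1 and 13.3 and the RPF ratio of GSOIDT00005710001 between 32.4 and 36.2, while that of GSOIDT00011363001 is lowest in release replicate 1 in both assays.

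Together the 4 gene models took 0.112% and 0.129% of the total RNA reads in stasis and 0.318% and 0.131% on release. Their share of RPF reads was 0.0844% and 0.0611% in the stasis samples, then 0.437% and 0.121% on release. GSOIDT00010986001 supplied most of these reads, as 33312 of 50223 in total RNA and 3483 of 5416 in RPF of release replicate 1. Release replicate 2 was close to stasis replicate 2 in total RNA and above both stasis samples in RPF.

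Translational efficiency (TE), footprints for a given amount of mRNA, was read from each sample as RPF over total RNA, each as a share of its library's reads, a ratio in which gene length cancels. For GSOIDT00010986001 this ratio was 0.789 (95% exact binomial interval 0.735 to 0.846) and 0.531 (0.435 to 0.642) in the stasis samples, then 1.33 (1.29 to 1.38) and 0.991 (0.873 to 1.12) on release. For GSOIDT00005710001 it was 0.788 (0.695 to 0.891) and 0.366 (0.255 to 0.510) in the stasis samples, then 1.33 (1.25 to 1.41) and 1.00 (0.807 to 1.23) on release. Both gene models had a higher TE in both release samples than in both stasis samples (2 of 4, against 18.5% of all gene models). Outside the 4, GSOIDT00017172001 had the same order (values below). GSOIDT00010986001 and GSOIDT00005710001 were nearly equal in every sample but stasis replicate 2, where GSOIDT00005710001 had the higher total RNA ratio described above.

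Part of that difference was common to the table. Over all gene models that reached 10 total RNA reads in the sample, the median ratio was 0.435 and 0.176 in the stasis samples, then 0.507 and 0.296 on release. Against all such gene models, GSOIDT00010986001 stood at percentile 72.4 and 76.4 in stasis and 85.3 and 85.6 on release, and GSOIDT00005710001 at percentile 72.3 and 66.0 in stasis and 85.2 and 85.8 on release. The log2 change of TE by replicate number was 0.75 and 0.90 for GSOIDT00010986001 and 0.75 and 1.45 for GSOIDT00005710001, with medians over all gene models of 0.23 and 0.28. Divided by the median of its sample, the ratio of GSOIDT00010986001 was 1.81 and 3.02 in stasis against 2.63 and 3.35 on release, so that the states overlapped. That of GSOIDT00005710001 was 1.81 and 2.08 against 2.62 and 3.38. At equal replicate number the release value was the higher for both gene models. The lower quartile over all such gene models was 0 in stasis and release replicate 2, against 0.187 and 0.242 in replicate 1.

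TE of the other 2 was uneven. GSOIDT00010985001 had 0.278 (0.197 to 0.380) and 0.577 (0.306 to 0.991) in stasis and 2.17 (2.00 to 2.36) and 0.501 (0.280 to 0.829) on release, which is percentile 34.9, 78.7, 94.6 and 66.1. GSOIDT00011363001 had 0.914 (0.723 to 1.14) and 0.233 (0.0633 to 0.598) in stasis and 0.346 (0.238 to 0.486) and 0.382 (0.175 to 0.727) on release, which is percentile 77.2, 54.9, 35.2 and 57.4. In both the stasis and release samples overlapped.

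**Figure D4:**
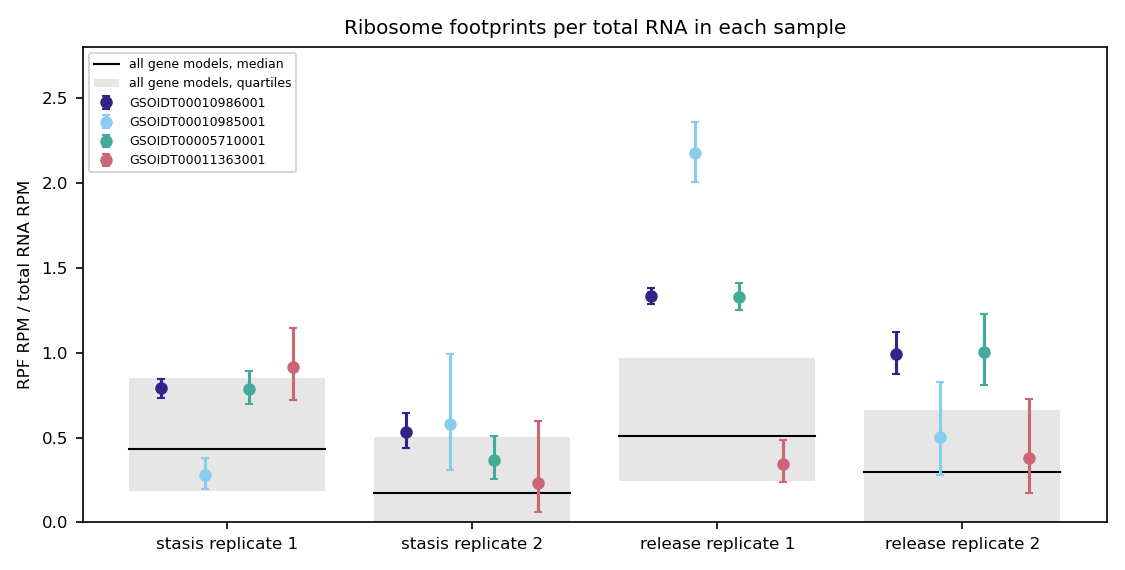
RPF over total RNA, each as a share of its library's reads (RPM), for the 4 gene models in each sample, with 95% exact binomial intervals (counting error only), the quartiles of all gene models (grey) and their median (line). GSOIDT00010986001 and GSOIDT00005710001 lie above the upper quartile in both release samples, at 1.33 in replicate 1 and at 0.991 and 1.00 in replicate 2.

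In the test of TE, the interaction of state and assay in edgeR, the log2 change was 0.55 ± 0.72 for GSOIDT00010986001, 1.83 ± 1.12 for GSOIDT00010985001, 0.86 ± 0.74 for GSOIDT00005710001 and -1.19 ± 0.52 for GSOIDT00011363001. The adjusted p was 0.932, 0.835, 0.869 and 0.819, so 0 of 4 passed, as did 0% of all gene models in either direction. At an unadjusted p under 0.05, 0 of the 4 were higher and 1, GSOIDT00011363001, was lower, where 2.45% of all gene models were higher and 3.49% lower. That fit treated the 8 libraries as independent, although RPF and total RNA came from the same samples. With a sample block the change of GSOIDT00011363001 was -0.90 (unadjusted p = 0.290, edgeR), and with DESeq2 it was -1.06 (unadjusted p = 0.133). Without stasis replicate 1 its change was 0.0052. DESeq2 and limma-voom called 0 gene models. Without release replicate 1 the changes were 0.44, 0.23, 0.76 and -0.83.

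Averaged over both states, RPF against total RNA was compared with other gene models using TMM factors over all 8 libraries. The log2 level was 0.82 for GSOIDT00010986001, 0.81 for GSOIDT00010985001, 0.69 for GSOIDT00005710001 and -0.03 for GSOIDT00011363001. The adjusted p was 0.0898, 0.301, 0.176 and 0.944 (edgeR), and 0 of 4 passed, where 16.1% of all gene models were called higher and 20.4% lower. Before adjustment 1 of the 4 had a p under 0.05 and was higher, where 20.6% of all gene models were higher and 27.1% lower. The zero point of this level depends on the scaling, since with library totals the median over all gene models moved from -0.19 to -1.12 and the levels of the first 3 turned to -0.14, -0.16 and -0.28, with 569 calls higher and 7921 lower in place of 2351 and 2984. The percentiles above do not depend on that choice.

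The 3 remaining myosin heavy chains were also highest in release replicate 1 in total RNA. GSOIDT00017172001 had 277 and 276 CPM in stasis and 1175 and 430 CPM on release, a log2 change of 1.54 ± 0.45 (adjusted p = 0.0898). GSOIDT00016002001 had 86.1 and 108 CPM in stasis and 300.1 and 111 CPM on release, a log2 change of 1.08 ± 0.45 (adjusted p = 0.173). GSOIDT00014839001 had 40.1 and 80.4 CPM in stasis and 133 and 86.5 CPM on release, a log2 change of 0.86 ± 0.36 (adjusted p = 0.174). Both release samples lay above both stasis samples in each (3 of 3, against 31.3% of all gene models). In 2 of 3, release replicate 1 had at least 2 times as much as release replicate 2, against 0.767% of all gene models. None passed after adjustment in edgeR (0 of 3, where 6.8% of all gene models were called higher) or in DESeq2 (0 of 3, where 8.89% were). At an unadjusted p under 0.05 in edgeR, 1 of 3 was higher, against 17.3% of all gene models. The changes without release replicate 1 were 0.64 for GSOIDT00017172001, 0.19 for GSOIDT00016002001 and 0.52 for GSOIDT00014839001.

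GSOIDT00017172001 had a larger change in RPF than in total RNA, as had GSOIDT00010986001, GSOIDT00010985001 and GSOIDT00005710001. Its RPF level was 141 and 274 CPM in stasis and 1460 and 376 CPM on release. That was a log2 change of 2.17 ± 0.69 (adjusted p = 1, edgeR), and of 0.88 without release replicate 1. Its TE was 0.528 and 0.765 in the stasis samples, then 1.53 and 0.885 on release. Both release samples lay above both stasis samples in RPF and in TE, as in 12.8% and 18.5% of all gene models. Its reads per 100 total RNA reads of GSOIDT00010986001 were 40.8 and 36.7 in stasis and 53.4 and 48.4 on release, the only one of the 6 ratios to that gene model in which both release libraries exceeded both stasis libraries in total RNA. The RPF changes of GSOIDT00016002001 and GSOIDT00014839001 were 0.85 ± 0.63 and 0.18 ± 0.70 (adjusted p = 1 for both), and their TE changes were -0.23 ± 0.77 and -0.51 ± 0.67. Their RPF changes without release replicate 1 were -0.12 and 0.039. Averaged over the states, GSOIDT00016002001 had a log2 RPF level of 1.08 against total RNA and passed in edgeR (adjusted p = 0.0378). That call did not hold with DESeq2 (adjusted p = 0.0510), with other filters or scalings (adjusted p from 0.0544 to 0.899), or without stasis replicate 1 (0.146) or release replicate 1 (0.0814), and with library totals the level was 0.13.

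Patterns over the 8 libraries were compared by the root mean square difference of log2 CPM after the mean of each assay was removed, among the 1804 gene models that had 10 or more reads in each of the 8. GSOIDT00010986001 and GSOIDT00005710001 were each other's nearest gene model (0.15). The next for both were GSOIDT00004370001 (0.24 and 0.28) and GSOIDT00001102001 (0.25 and 0.26), which are not in the annotated rows used here. The nearest to GSOIDT00010985001 were GSOIDT00017172001 (0.36), GSOIDT00013399001 (0.44), without annotation here, and GSOIDT00010986001 (0.58). GSOIDT00011363001 had under 10 reads in 2 RPF libraries and was compared with the 1804 from outside. Its nearest were GSOIDT00012686001 (0.14), GSOIDT00004998001 (0.17) and GSOIDT00016818001 (0.18), all without annotation here, while GSOIDT00010986001 ranked 1709. The 8 libraries share depth differences between replicates, so these distances describe the libraries alone.

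The other muscle annotations gave 20 gene models, of which 19 were tested. In total RNA 15 of 19 were above 0, with a median log2 change of 0.85 where the median over all gene models was -0.02 and that of the 4 myosin heavy chains was 1.00. With release replicate 1 left out, the median was 0.32 for the 19 (14 of 19 above 0) and 0.28 for the 4. Of the 19, 1 was called higher and 1 lower, where 6.8% of all gene models were called higher and 2.27% lower. Among thick filament genes, 3 of 4 were above 0 and edgeR called 0 of 4 (3 of 4 at an unadjusted p under 0.05, 1 of them lower). Over all gene models 17.3% were higher and 13% lower at that unadjusted p. The highest was GSOIDT00002370001, annotated as myosin light chain 5, with 13.6 and 7.35 CPM in stasis and 52.9 and 23.6 CPM on release (log2 change 1.85 ± 0.46, adjusted p = 0.0643). DESeq2 called it (1.87, adjusted p = 0.000305), and without release replicate 1 its change was 1.16. The lowest was GSOIDT00003019001, annotated as myosin light chain kinase, which phosphorylates the regulatory light chain, at -0.76 ± 0.21 (adjusted p = 0.0756), and at -0.83 without release replicate 1.

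All 8 thin filament gene models tested were above 0, 7 of 8 without release replicate 1 and 6 of 8 on library totals. The highest, GSOIDT00015647001, annotated as tropomyosin alpha-1 chain, rose from 9.92 and 7.95 CPM to 34.3 and 21.3 CPM, a log2 change of 1.63 ± 0.27 (adjusted p = 0.0299, edgeR). It was not called without release replicate 1 (1.25, adjusted p = 0.183) or without release replicate 2 (1.94, adjusted p = 0.263), fits in which 0 gene models were called. RPF of GSOIDT00015647001 was 11.5 and 9.60 CPM in stasis and 3.41 and 6.78 CPM on release, from 19, 2, 5 and 2 reads. Its TE change was -3.10 ± 0.81 (adjusted p = 0.819, edgeR). The lowest in total RNA, GSOIDT00000757001, annotated as alpha actin, was at 0.06 ± 0.29 from 40 to 65 reads a library. Without release replicate 1 its change was -0.20.

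Among 7 other muscle gene models 4 were above 0. The highest was GSOIDT00011417001, annotated as ankyrin repeat domain 2, a stretch-responsive muscle protein in mammals, at 1.21 ± 0.38 (adjusted p = 0.102). DESeq2 called it (adjusted p = 0.0106), and without release replicate 1 its change was 0.59. GSOIDT00015376001 fell from 148 and 96.3 CPM to 40.6 and 43.6 CPM, a log2 change of -1.54 ± 0.21 (adjusted p = 0.0255, edgeR), and its change was -1.49 and -1.59 without release replicate 1 or 2, fits in which no gene model was called (0). It is described as heavy polypeptide skeletal adult, wording found in the names of vertebrate skeletal myosin heavy chains, although the word myosin is absent from it. Its change had the opposite sign to that of the 7 gene models described as myosin heavy chain. Myosin VIIa, an unconventional myosin that is not part of muscle filaments, had 82.4 and 87.1 CPM in stasis and 80.8 and 73.9 CPM on release, a log2 change of -0.13 ± 0.10 (GSOIDT00002041001, adjusted p = 0.424).

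**Figure D5:**
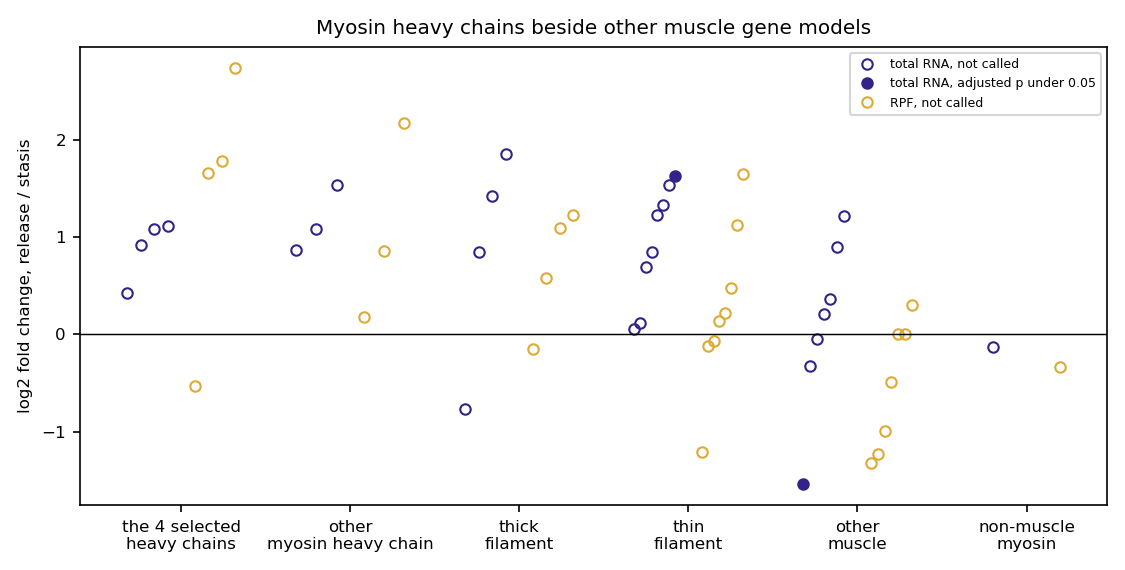
Log2 change on release of single gene models in total RNA (blue) and RPF (yellow), by annotation. Filled points passed an adjusted p of 0.05 (edgeR): a tropomyosin at 1.63 and the gene model described as heavy polypeptide skeletal adult at -1.54. In total RNA all 4 selected myosin heavy chains and all 3 others lie above 0, and myosin VIIa lies at -0.13.

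The distance between the release samples was not particular to myosin heavy chains. A ratio of 2 or more between release replicates 1 and 2 was found in total RNA for 3 of 4 thick filament, 1 of 8 thin filament and 3 of 7 other muscle gene models. Together these were 7 of 19, against 0.767% of all gene models. The median log2 difference between these libraries was 1.29 for the 4 myosin heavy chains, 1.43 for the other 3, 1.16 for the thick filament, 0.70 for the thin filament and 0.07 for the other muscle gene models, with -0.01 over all gene models and 95% of them below 0.42. In RPF the median log2 change was 1.71 for the 4, 0.85 for the other 3, 0.83 for the thick filament, 0.18 for the thin filament and -0.49 for the other muscle gene models. The 19 together had 0.01, with 10 of 19 above 0 and 0 of 19 called in edgeR. At an unadjusted p under 0.05, 1 of 19 was higher, against 0.363% of all gene models. With release replicate 1 left out, the RPF medians were 0.54 for the 4, 0.039 for the other 3, -0.51 for the thick filament and -0.57 for the 19. The median TE change was 0.71 for the 4, -0.23 for the other 3 and -0.75 for the 19, with 7 of 19 above 0 and 0 of 19 called. In the TE level, averaged over the states, 11 of 19 were called higher in edgeR, where 16.1% of all gene models were. Of the 4 it was 0 and of the other 3 it was 1. On library totals the median TE level of the 19 was 0.37 in place of 1.33, with 10 of 19 above 0. Differences between the lists were not tested.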

How the data were processed

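Total RNA and ribosome protected fragments came from the same samples of whole animals, 2 of each state. After adapter clipping and a filter against rRNA and tRNA, the authors aligned reads to the genome and tallied them by Genoscope gene model. The submitters' processing notes name Bowtie2 2.1.0, TopHat2 2.0.13 and featureCounts. The authors deposited raw read counts, whole numbers for each gene model, with no normalization. No source used here gives the genome build, strand setting or treatment of reads with several matches. All else was computed here. The fits ran over the 14595 gene models that reached 100 reads in the 8 libraries together, in edgeR 4.0.16 (TMM, quasi-likelihood, Benjamini-Hochberg, threshold 0.05) under R 4.3.3, with DESeq2 1.42.0, limma 3.58.1 and the settings named in the closing section as alternatives. A standard error is the change over the square root of its F statistic. TE was the state by assay interaction with TMM within each assay. The main fits of TE and of the TE level had no sample block. The babel package of the methods was not used. Scripts were tested on simulated counts. Python 3.11.15, pandas 2.3.3, scipy 1.17.1, statsmodels 0.14.6 and matplotlib 3.10.9 made tables and figures.

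The 4 gene models and the lists were chosen with earlier results of these data known. Named besides the 7 myosin heavy chains were, by rule, the called members and the extremes of each list in total RNA, myosin VIIa and the 3 nearest patterns to each of the 4. The rule also covers RPF, TE and the TE level, for which the lists are given by counts and medians only, apart from RPF and TE of GSOIDT00015647001. The annotated rows were the first of a longer table ordered by a drug response, so the lists may lack muscle genes. None of the identifiers (0) was found in the RefSeq gene table, so no sequence or position is given. The labels name RNAqueous and the methods RNEasy for the extraction of total RNA.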

Additional observations from a re-analysis of the deposited data

How the results depend on the processing

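Over the 4 gene models and the alternatives to the total RNA test there were 39 values. None changed sign (0), 30 left the call as it was and 9 added a call. DESeq2 added GSOIDT00010986001 (1.11) and GSOIDT00010985001 (1.09). Leaving out 1 sample gave log2 changes of 0.31 to 1.62 for GSOIDT00010986001, 0.24 to 1.62 for GSOIDT00010985001, 0.15 to 1.42 for GSOIDT00005710001 and 0.36 to 0.48 for GSOIDT00011363001. Leaving out 1 sample gave RPF changes of 0.32 to 3.57 for GSOIDT00010985001 and -0.99 to 0.44 for GSOIDT00011363001, and a TE change of -1.55 to 0.0052 for GSOIDT00011363001. For the TE level the ranges were -0.17 to 1.34 for GSOIDT00010985001 and -0.66 to 0.18 for GSOIDT00011363001. With TMM within each assay the TE levels were -0.19, -0.21, -0.33 and -1.06 for GSOIDT00010986001, GSOIDT00010985001, GSOIDT00005710001 and GSOIDT00011363001, and with library totals -0.14, -0.16, -0.28 and -1.003. GSOIDT00011363001 passed in both as lower, in fits that called 8788 and 7921 of 14595 gene models lower. For GSOIDT00017172001 the TE levels were -0.12 and -0.086. For GSOIDT00014839001 they were -0.55 and -0.48, with -0.14 where 10 reads were required in every library. The TE change of GSOIDT00016002001 was 0.071 with library totals, 0.10 and 0.094 with limma on the ratio (pseudocounts 0.5 and 5 RPM), and -0.61 to 0.39 without 1 sample. Without 1 sample, RPF of GSOIDT00014839001 was -0.37 to 0.81 and of GSOIDT00016002001 -0.12 to 1.42. Total RNA of GSOIDT00000757001 was -0.087 with library totals and -0.20 to 0.31 without 1 sample. Library totals moved the median total RNA change of all gene models from -0.02 to -0.16. The TE level of GSOIDT00016002001, 1.08, was 0.058 with TMM within each assay and 0.43 with 10 reads in every library. Without release replicate 1 its TE change was -0.34, and that of GSOIDT00017172001 0.26 and of GSOIDT00014839001 -0.37. Total RNA of GSOIDT00002041001 was then -0.20. The causes were not tested.

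The gene models called in total RNA numbered 1325, against 102 where 10 reads were required in every library (1804 tested) and 0 to 4796 without 1 sample. In RPF 1 was called, against 0 with DESeq2, library totals, limma-voom, no filter or 10 reads in every library, and 0 to 39 without 1 sample. In TE 0 were called, and 0 to 167 without 1 sample. For the TE level 5335 were called, against 9372 with TMM within each assay, 8490 with library totals, 775 with 10 reads in every library, 2956 with a sample block and 1459 to 5700 without 1 sample.

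Setting aside the reads of the 7 gene models over 1% of an RPF library gave mean RPF per total RNA of 1.12 in stasis and 1.66 on release for GSOIDT00010986001, 0.925 and 1.66 for GSOIDT00005710001, 0.838 in stasis for GSOIDT00010985001 and 0.536 on release for GSOIDT00011363001. The mean RPF share of the 4 in stasis was then 0.127% in place of 0.0727%. Over all 7 myosin heavy chains the mean stasis shares were 0.166% of total RNA and 0.107% of RPF.

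Whether same-numbered samples share a batch is not given in the labels, and the main fits did not pair them. Deviations of same-numbered samples correlated at 0.198 in total RNA and 0.146 in RPF. With 2 numbers only, these values cannot decide the question. With the replicate block, 1648 gene models were called in total RNA, 1 in RPF and 0 in TE, where GSOIDT00002370001 (adjusted p = 0.0251) and GSOIDT00011417001 (adjusted p = 0.0270) were added in total RNA, and the changes of GSOIDT00010986001, GSOIDT00010985001, GSOIDT00005710001 and GSOIDT00011363001 in total RNA were 0.97, 0.93, 0.83 and 0.42, with 0 of 4 called.

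A leave-one-out fit holds 1 sample of a state, which is assumed to vary like the others. RPF depth in replicate 2, with 4 to 257 reads for each of the 4 gene models, limits what can be seen of footprints and TE.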
